A study of Mus musculus with 6 samples.

Results

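Notch signalling was described through 10 genes, taken by name from the pathway's ligands (Dll1, Dll4, Jag1, Jag2), receptors (Notch1, Notch2), the receptor-modifying enzyme Lfng, the DNA-binding effector Rbpj and the target genes Hes1 and Hes5. All 10 were measured, out of 19938 genes in all, each by the probe set with the highest mean among those annotated to that gene alone. The RNA came from isolated epithelial cells of the small intestine of mouse embryos at stage E18.5, shortly before birth, and was hybridised to 6 whole-transcript arrays. According to the labels, 3 arrays were controls and 3 were Gata4Gata6 cKO, that is, conditional knockouts of both GATA4 and GATA6, transcription factors of the gut epithelium. The sources used here do not give the Cre driver, the exons removed or the genotype of the controls. They also do not say that the 3 RNAs of a group were from different animals, so the p-values cover the spread among these samples alone, and part of that spread may be technical.

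Notch is a receptor activated by ligands on the neighbouring cell. Ligand binding exposes the receptor to cleavage by ADAM proteases and then by gamma-secretase, and the freed intracellular domain enters the nucleus, binds RBPJ with a Mastermind coactivator and turns on repressor genes of the Hes family. In the intestinal epithelium, cells that receive the signal keep Hes1 on and Atoh1 off and stay progenitors or become absorptive, while Atoh1-positive cells become secretory and display Delta-like ligands, DLL1 and DLL4, to their neighbours.

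The promoters shown here belong to the Delta-like ligand genes, which moved in opposite directions, and to Lfng and Hes5, the members whose window held the RBPJ motif. Each is the 250 bases before the RefSeq start site (GRCm38.p6), 5′ to 3′ on the gene's strand, with capitals marking a match to the RBPJ motif GTGGGAA or to the E-box CAGCTG, a site type bound by bHLH factors.
Dll1, chr17:15376933-15377182, minus strand: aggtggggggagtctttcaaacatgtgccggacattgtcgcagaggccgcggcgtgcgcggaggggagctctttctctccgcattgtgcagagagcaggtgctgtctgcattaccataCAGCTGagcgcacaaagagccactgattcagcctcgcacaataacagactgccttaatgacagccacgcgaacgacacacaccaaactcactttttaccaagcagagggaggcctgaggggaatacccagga
Dll4, chr2:119325534-119325783, plus strand: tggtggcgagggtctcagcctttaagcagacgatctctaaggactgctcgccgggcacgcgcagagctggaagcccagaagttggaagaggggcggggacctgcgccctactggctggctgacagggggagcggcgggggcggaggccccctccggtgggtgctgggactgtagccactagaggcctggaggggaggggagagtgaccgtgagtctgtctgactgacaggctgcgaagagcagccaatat
Lfng, chr5:140607091-140607340, plus strand: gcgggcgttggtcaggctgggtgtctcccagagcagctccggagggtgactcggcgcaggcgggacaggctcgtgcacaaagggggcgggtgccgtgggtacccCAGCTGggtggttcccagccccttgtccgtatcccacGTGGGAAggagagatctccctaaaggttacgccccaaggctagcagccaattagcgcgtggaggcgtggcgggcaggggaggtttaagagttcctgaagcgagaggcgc
Hes5, chr4:154960673-154960922, plus strand: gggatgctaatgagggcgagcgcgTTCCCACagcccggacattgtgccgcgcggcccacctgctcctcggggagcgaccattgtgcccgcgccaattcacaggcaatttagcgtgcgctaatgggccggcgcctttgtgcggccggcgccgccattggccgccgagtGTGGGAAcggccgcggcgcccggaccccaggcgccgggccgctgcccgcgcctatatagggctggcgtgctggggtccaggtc
RefSeq windows were matched for 9 of the 10 genes, all but Hes1, and Dll1 and Rbpj had 2 each, of which the outermost was read. Searched on both strands, GTGGGAA occurred at 2 places in the Hes5 window and at 1 in that of Lfng, and it occurred in 5.42% of all 32851 windows of this length. The palindrome CAGCTG occurred in the windows of Dll1, Lfng and Jag1 and in 13.0% of all windows. The GATA-type motif AGATAA was in none of the 9 windows and in 9.99% of all windows. A letter match is no evidence of binding, and a window without one says nothing about the factor.

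Levels are the deposited values, read here as log2 intensities, and changes are arrays labelled cKO minus control arrays, on the log2 scale, ± SE, from 3 arrays per group. Adjusted p-values are from limma, corrected by Benjamini-Hochberg across all 19938 genes, and a gene is said to have risen or fallen where this value was under 0.05. The 2 targeted genes did not fall but rose, Gata4 by 0.47 ± 0.075 (limma adjusted p = 0.0101) and Gata6 by 0.45 ± 0.065 (limma adjusted p = 0.0067). Every direction therefore rests on the labels. Probes outside a deleted part would still give signal, but where the probes lie was not examined, and the cause of the rise was not tested. With control 3 and cKO 2 both left out, the changes of Gata4 and Gata6 were 0.49 and 0.47 and neither passed (limma adjusted p = 0.0646 and 0.0503). Control 3 and cKO 2 stood apart from their groups. Control 3 differed from the other 5 arrays in sex-linked transcripts. The array cKO 2 had the highest averages of the hepatocyte markers (13.01 against at most 11.56 elsewhere), the erythroid markers (11.45 against at most 9.32) and the immune markers (9.19 against at most 8.16). Of the immune markers, Csf1r was lower on cKO 2 (9.12) than on the controls (10.26 to 10.6), though above cKO 1 and cKO 3 (7.84 and 7.54). Markers of intestinal epithelium averaged 12.17 to 12.21 on the control arrays and 12.32 to 12.48 on those labelled cKO. In bulk RNA, fewer cells of a type and less RNA per cell cannot be told apart.

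Of the 10 Notch genes, 4 rose (Dll4, Lfng, Notch2 and Jag2) and 1 fell (Dll1), whereas 12.9% of all genes passed the test, 5.52% higher and 7.42% lower. The same 5 genes, 4 higher and 1 lower, had groups that did not overlap, as did 32.6% of all genes (14.3% higher and 18.3% lower). In Dll4, Lfng and Dll1 the change was at least 1 log2 unit, which 3.62% of all genes reached together with the test. The median change of the 10 was 0.09, against −0.01 over all genes. The genes that passed were among the ligands, the receptors and the modifying enzyme. The members at the transcriptional end of the pathway, Rbpj, Hes1 and Hes5, gave changes of 0.02 to 0.05 with overlapping groups. Outside the 10, the Notch target Nrarp fell by 0.56 ± 0.080 (limma adjusted p = 0.00677), while none of 7 other Hes and Hey genes passed.

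**Figure D1:**
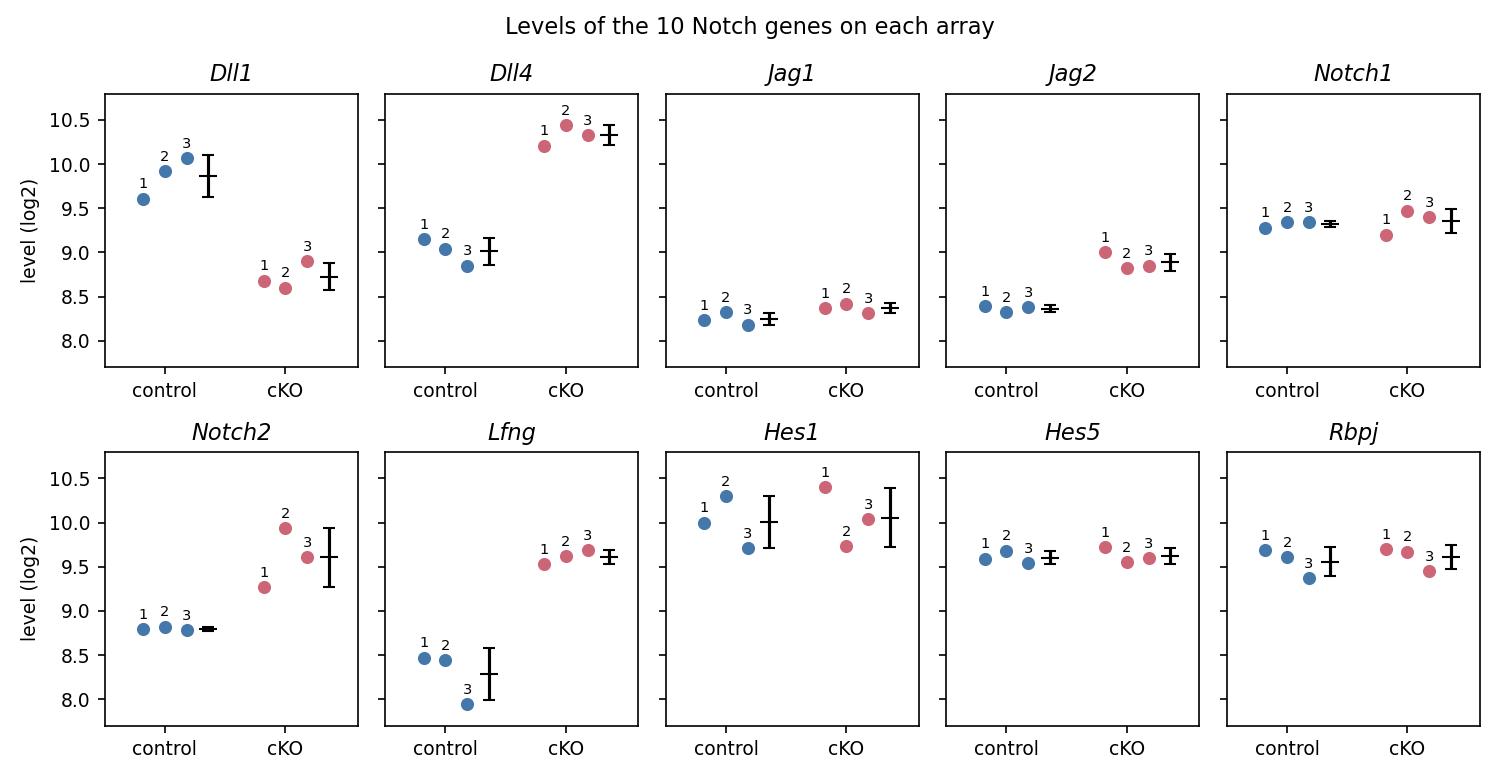
Level (log2) of each of the 10 genes on every array, with controls in blue and arrays labelled cKO in red, numbered by replicate, and mean ± SD (n = 3) in black. The groups lie apart in Dll1, Dll4, Jag2, Notch2 and Lfng and overlap in the other 5, and heights of different genes are not comparable because each has its own probes.

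The ligand genes of the Delta-like type changed in opposite directions. Dll4 stood at 9.15, 9.04 and 8.85 on the control arrays and at 10.21, 10.44 and 10.33 on the arrays labelled cKO. Every cKO array was above every control array, with more than 1 log2 unit between the nearest values. The rise was 1.31 ± 0.11 (2.49-fold, limma adjusted p = 0.000859). Dll1 stood at 9.61, 9.92 and 10.07 on the control arrays and at 8.68, 8.60 and 8.90 on the arrays labelled cKO. Here every cKO array was below every control array, and the fall was 1.14 ± 0.14 on the log2 scale (2.2-fold, limma adjusted p = 0.00406). Both calls were kept with each array left out in turn, with changes of 1.23 to 1.38 for Dll4 and −1.27 to −1.04 for Dll1.

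Within each array the log2 difference between Dll4 and Dll1 shifted toward Dll4. Relative to the control mean, the difference was 2.38, 2.69 and 2.28 on the arrays labelled cKO and between −0.37 and 0.39 on the controls. The groups were apart by a shift of 2.45. The exact two-sided permutation test over arrays gave p = 0.1, the smallest that 3 against 3 arrays allow (0.133 adjusted over the 4 pairs compared). With Dll4 higher and Dll1 lower on every cKO array, this outcome was fixed beforehand, and the test adds nothing to the changes above. A shift of this kind shows that the 2 genes changed unequally and says nothing about which transcript was the more abundant.

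**Figure D2:**
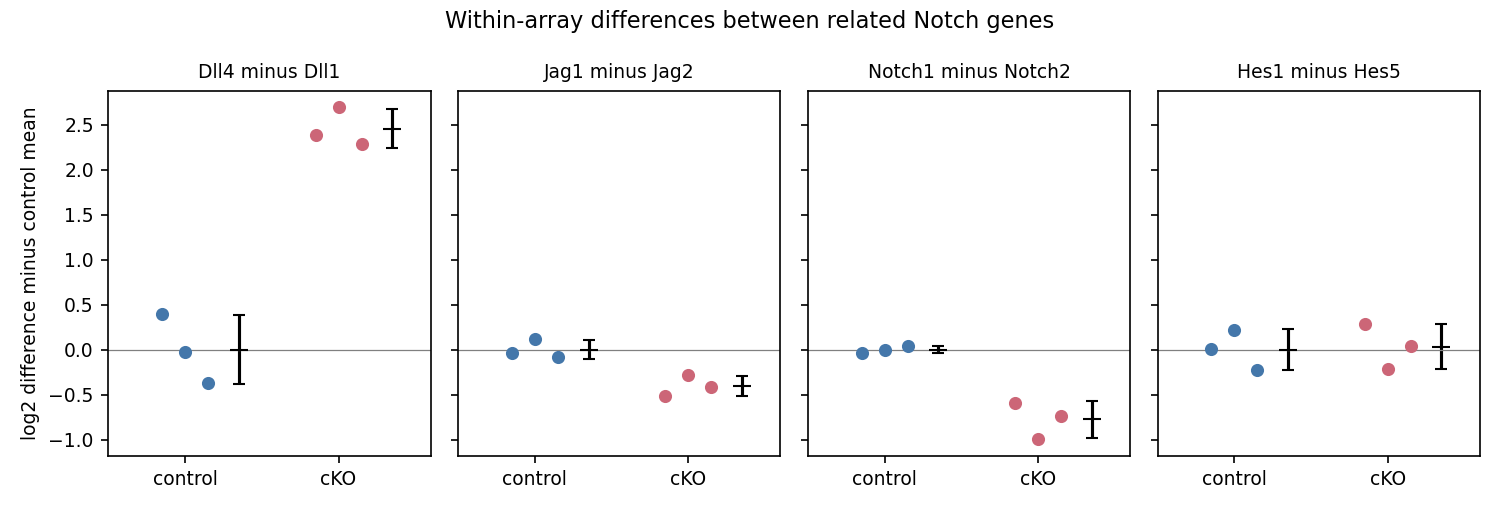
Log2 difference between 2 related Notch genes on each array, less the control mean of that difference (controls blue, arrays labelled cKO red, mean ± SD in black, n = 3). The cKO arrays lie above the controls for Dll4 minus Dll1, below them for Jag1 minus Jag2 and Notch1 minus Notch2, and among them for Hes1 minus Hes5.

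Of the Jagged ligand genes, which encode larger Notch ligands with an added cysteine-rich region, Jag2 rose and Jag1 did not pass the test. Jag2 stood at 8.39, 8.32 and 8.38 on the control arrays and at 9, 8.82 and 8.85 on the arrays labelled cKO. The groups were well apart for so small a change, with an SD of 0.038 among the controls, and the rise was 0.53 ± 0.079 (1.44-fold, limma adjusted p = 0.00786). Jag1 stood at 8.23, 8.32 and 8.18 on the control arrays and at 8.37, 8.42 and 8.31 on the others. The highest control array lay just above the lowest cKO array, and the change was 0.12 ± 0.075 (95% interval −0.06 to 0.30, limma adjusted p = 0.364). Relative to the control mean, Jag1 minus Jag2 was −0.51, −0.28 and −0.42 on the arrays labelled cKO and −0.08 to 0.12 on the controls (shift −0.40, exact permutation p = 0.1, adjusted 0.133).

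Among the receptor genes Notch2 rose and Notch1 did not pass. Notch2 stood at 8.79, 8.82 and 8.78 on the control arrays and at 9.27, 9.94 and 9.61 on the arrays labelled cKO. The controls were nearly identical (SD 0.021) while the cKO arrays were spread (SD 0.34), with cKO 2 highest. The rise was 0.81 ± 0.17 (1.75-fold, limma adjusted p = 0.0243), and it was 0.64 (limma adjusted p = 0.021) without cKO 2. The call was lost without any 1 of the controls or without cKO 3 (limma adjusted p up to 0.0867), with changes of 0.80 to 0.82. It was also lost with control 3 and cKO 2 both left out (change 0.64, limma adjusted p = 0.0664). Notch1, the main receptor of intestinal progenitors beside Notch2, stood at 9.28, 9.34 and 9.34 on the control arrays and at 9.20, 9.47 and 9.40 on the arrays labelled cKO. The control values lay within the range of the others, and the change was 0.04 ± 0.091 (95% interval −0.18 to 0.26, limma adjusted p = 0.844). Relative to the control mean, Notch1 minus Notch2 was −0.59, −0.99 and −0.73 on the arrays labelled cKO and −0.03 to 0.04 on the controls (shift −0.77, exact permutation p = 0.1, adjusted 0.133).

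Lfng, the Fringe glycosyltransferase that extends O-fucose on Notch and thereby favours activation by Delta-like over Jagged ligands, had, with Dll4, the largest change of the 10. It stood at 8.47, 8.44 and 7.94 on the control arrays and at 9.53, 9.62 and 9.69 on the arrays labelled cKO. All cKO arrays were above all controls by more than 1 log2 unit, with control 3 the lowest of the 6. The rise was 1.33 ± 0.15 (2.51-fold, limma adjusted p = 0.00313) and lay between 1.16 and 1.42 with 1 array left out, with the call kept each time. Without control 3 and cKO 2 the call was kept as well.

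The nuclear effectors did not pass the test. Rbpj, the DNA-binding partner of the Notch intracellular domain, stood at 9.69, 9.61 and 9.37 on the control arrays and at 9.70, 9.67 and 9.45 on the arrays labelled cKO. Each group held 1 lower array, the replicate numbered 3, and the change was 0.05 ± 0.12 (95% interval −0.23 to 0.33, limma adjusted p = 0.834). Its other probe set, much dimmer at a mean of 6.21, changed by −0.25 ± 0.14 (limma adjusted p = 0.301 over all probe sets). Hes1, the repressor that holds Atoh1 down in Notch-active cells, stood at 10, 10.30 and 9.71 on the control arrays and at 10.40, 9.73 and 10.04 on the arrays labelled cKO. It had the widest scatter of the non-passing members in both groups (SD 0.30 and 0.34), and the change of 0.05 ± 0.21 (limma adjusted p = 0.906) has a 95% interval of −0.46 to 0.56, which leaves room for a change of either sign. Hes5, another Hes repressor driven by Notch, stood at 9.59, 9.68 and 9.54 on the control arrays and at 9.72, 9.55 and 9.60 on the arrays labelled cKO. Its groups lay over each other, and the change was 0.02 ± 0.081 (95% interval −0.18 to 0.22, limma adjusted p = 0.909). Hes1 minus Hes5 shifted by 0.03 (exact permutation p = 0.7).

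**Figure D3:**
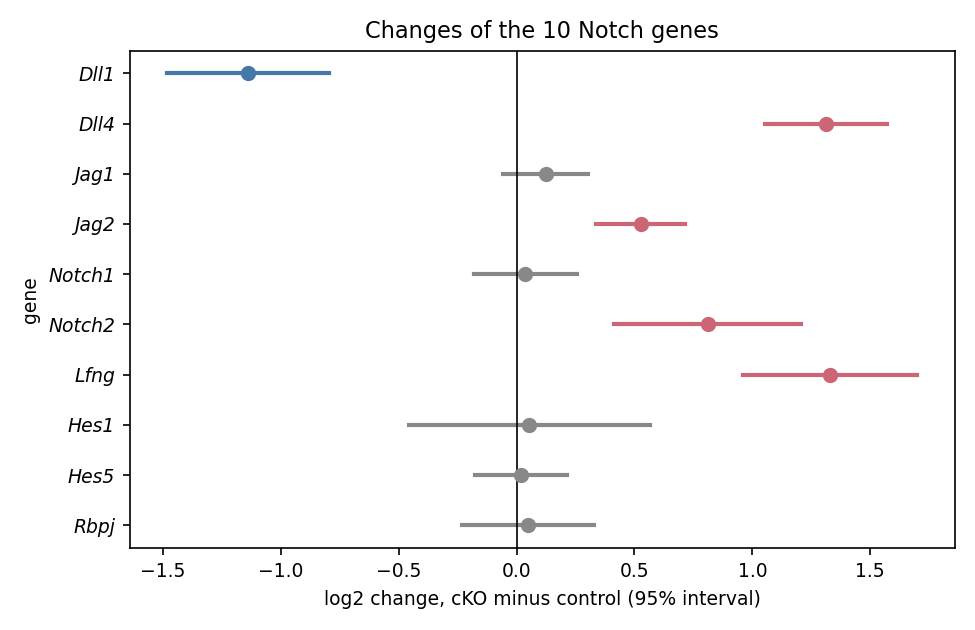
Log2 change of each gene (arrays labelled cKO minus controls) with its 95% interval from limma, in red where the gene rose, blue where it fell and grey where the adjusted p was 0.05 or more. The intervals of Dll4, Lfng, Notch2 and Jag2 lie above 0 and that of Dll1 below it, and Hes1 has the widest interval of the grey genes.

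Several of these genes are also active outside the epithelium. Endothelial cells use Dll4, Jag1, Notch1 and Notch4, and mural cells of vessels use Notch3 and Notch2. Of 12 endothelial markers 0 passed limma's test and 0 had an unadjusted p under 0.05. Their average was 7.55, 7.52 and 7.96 on the control arrays and 7.495, 8.31 and 7.23 on the arrays labelled cKO. The average was highest on cKO 2 and lowest on cKO 3, where Dll4 stood at 10.44 and 10.33. None of 8 smooth muscle and pericyte markers passed limma's test, while 4 had an unadjusted p under 0.05, as had 26.6% of all genes, and their average was higher on the arrays labelled cKO, 8.36, 8.14 and 7.66 against 7.47 to 7.58. The 7 fibroblast markers gave 0 calls and 5 with an unadjusted p under 0.05, with averages of 8.04 to 8.61 on the controls and 8.30 to 9.23 on the others. In 3 of the 7, Col1a1, Col3a1 and Dcn, the arrays labelled cKO were all higher and in 2, Pdgfra and Foxf1, all lower, as in 14.3% and 18.3% of all genes. Changes of the smooth muscle and pericyte markers ran from −0.06 (Rgs5) to 1.73 ± 0.46 (Acta2, limma adjusted p = 0.0588). Those of the fibroblast markers ran from −0.55 (Pdgfra) to 1.85 ± 0.49 (Dcn, limma adjusted p = 0.058). No marker of these 3 lists was at 0 on any array, and their part in the changes of Dll4, Notch2 and Jag2 was not tested. The handling stress genes, such as Fos and Egr1, gave 0 calls of 7 and averaged 8.59 to 8.75 and 8.59 to 8.92 in the 2 groups (1 had an unadjusted p under 0.05).

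Secretory cells display Delta-like ligands, and their markers differed in direction by cell type. All 5 measured goblet cell markers rose, where 5.52% of all genes did. They averaged 12.09 to 12.31 on the controls and 12.93 to 13.04 on the arrays labelled cKO. Of 6 enteroendocrine markers 3 fell and 0 rose, where 7.42% of all genes fell. Their averages were 8.71 to 8.81 on the controls and 8.10 to 8.39 on the arrays labelled cKO. The marker lists were chosen with earlier results of these data known, so their counts beside the shares of all genes are a description only. The part of such cells in the changes of Dll4, Lfng and Dll1 was not tested. In a list of 6 gut lineage genes known to respond to Notch, Atoh1, which starts the secretory fate, rose by 1.17 ± 0.15, Spdef, which matures goblet cells, by 1.36 ± 0.14, and Gfi1, a repressor acting below Atoh1, by 0.45 ± 0.075. Neurod1, an endocrine factor, fell by 0.86 ± 0.17 (limma adjusted p = 0.0218), a call lost without control 1, control 2 or cKO 1 (up to 0.0851). Gfi1 lost its call without control 2 (limma adjusted p = 0.0521), without control 3 and cKO 2 together (0.066) and with the replicate number as a block (0.0529). Olfm4, a direct Notch target of intestinal stem cells, stood at 11.83, 12.00 and 11.12 on the control arrays and at 7.59, 10.98 and 9.22 on the others. All 3 of the latter values were lower, yet they spanned more than 3 log2 units, and the change of −2.39 ± 0.80 passed only with cKO 2 left out, alone or with control 3, and with array weights (limma adjusted p = 0.114 with all arrays, 0.0105 without cKO 2). Neurog3, which starts the endocrine fate, changed by −0.47 ± 0.17 (limma adjusted p = 0.132) and passed only without cKO 3 (0.032).

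Outside the 10, most pathway genes did not pass the test. Of 66 further genes listed by role, 62 were measured, and 3 rose and 7 fell, against 5.52% and 7.42% of all genes. With control 3 and cKO 2 both left out, 1 rose and 4 fell. Their median change was 0.01, and the 52 that did not pass lay between −0.40 and 0.31. Neither remaining receptor gene passed, with Notch3 at −0.01 and Notch4 at 0.15, and none of the 7 other Hes and Hey effector genes did (−0.09 to 0.11). All 5 genes of ligand endocytosis, among them Mib1, the ubiquitin ligase that Delta-like and Jagged ligands need in the signalling cell, were within −0.04 and 0.12 and did not pass. In these 3 groups 0 genes had an unadjusted p under 0.05 in limma.

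Of the ligand-like proteins, Dlk1, a Delta homologue that lacks the DSL domain which binds Notch, rose by 1.92 ± 0.38 (limma adjusted p = 0.0224), from 10.07, 9.11 and 10.27 to 11.43, 12.38 and 11.41. It was highest on cKO 2, and the hepatocyte average was 10.18, 8.47 and 11.56 on controls 1 to 3 and 8.51, 13.01 and 8.64 on cKO 1 to 3. The part of such cells in this rise was not tested. The call was lost without control 1 or control 2 (limma adjusted p up to 0.0598), with a trended, robust eBayes (0.0563) and with the replicate number as a block (0.0966). Dll3, Dlk2 and Dner did not pass and lay between −0.10 and −0.07.

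Enzymes that act on the receptor changed in both directions. Pofut1, which adds the O-fucose that Lfng extends, fell by 0.53 ± 0.083 (limma adjusted p = 0.00926) while Lfng rose. Its call was lost without control 3 and cKO 2 together (0.0621). Of the other Fringe genes, neither Rfng (0.26 ± 0.11) nor Mfng (0.10 ± 0.096) passed. In the receptor cleavage group, 1 of 9 measured genes passed. Aph1c, a gamma-secretase subunit, fell by 0.88 ± 0.21 (limma adjusted p = 0.0436), but its call was lost on leaving out any array except cKO 1 (up to 0.133), and its close copy Aph1b, at −0.40 ± 0.13, may share probes with it. Adam10, the main sheddase of Notch, changed by 0.18 ± 0.10 and did not pass.

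Inhibitors and turnover factors gave 4 falls and no rise among 12 genes, where 7.42% of all genes fell and 5.52% rose. The 8 that did not pass changed in both directions, from −0.18 to 0.31. Among them Fbxw7 changed by 0.29 ± 0.079 (limma adjusted p = 0.0625). Every array labelled cKO was above every control in Fbxw7, as in 14.3% of all genes. Nrarp, an ankyrin repeat protein that is a Notch target and destabilises the Notch intracellular domain, stood at 9.29, 9.35 and 9.18 on the control arrays and at 8.66, 8.70 and 8.79 on the arrays labelled cKO. The groups were clearly apart, and the fall was 0.56 ± 0.080 (limma adjusted p = 0.00677), kept with each array left out. Numb, the endocytic inhibitor of Notch, fell by 0.53 ± 0.083 (limma adjusted p = 0.00914). This call was lost without control 3 and cKO 2 together (0.0514) and with the replicate number as a block (0.0585). The Deltex family members Dtx3l and Dtx2 fell by 0.71 ± 0.085 and 0.43 ± 0.10, and the latter did not pass once any array was removed (limma adjusted p up to 0.136). Of 8 coactivators Maml3, a Mastermind protein, rose by 0.58 ± 0.10 (limma adjusted p = 0.0141) and Kat2a, a histone acetyltransferase, by 0.40 ± 0.10, the latter not passing once any array was removed (limma adjusted p up to 0.144). The Maml3 call was lost without cKO 3 (limma adjusted p = 0.0525), without control 3 and cKO 2 together (0.0743) and with the replicate number as a block (0.074). Of 11 measured corepressors 1 passed, Tle3, a Groucho protein recruited by Hes factors, which fell by 0.84 ± 0.13 (limma adjusted p = 0.00917) and kept its call with each array left out.

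**Figure D4:**
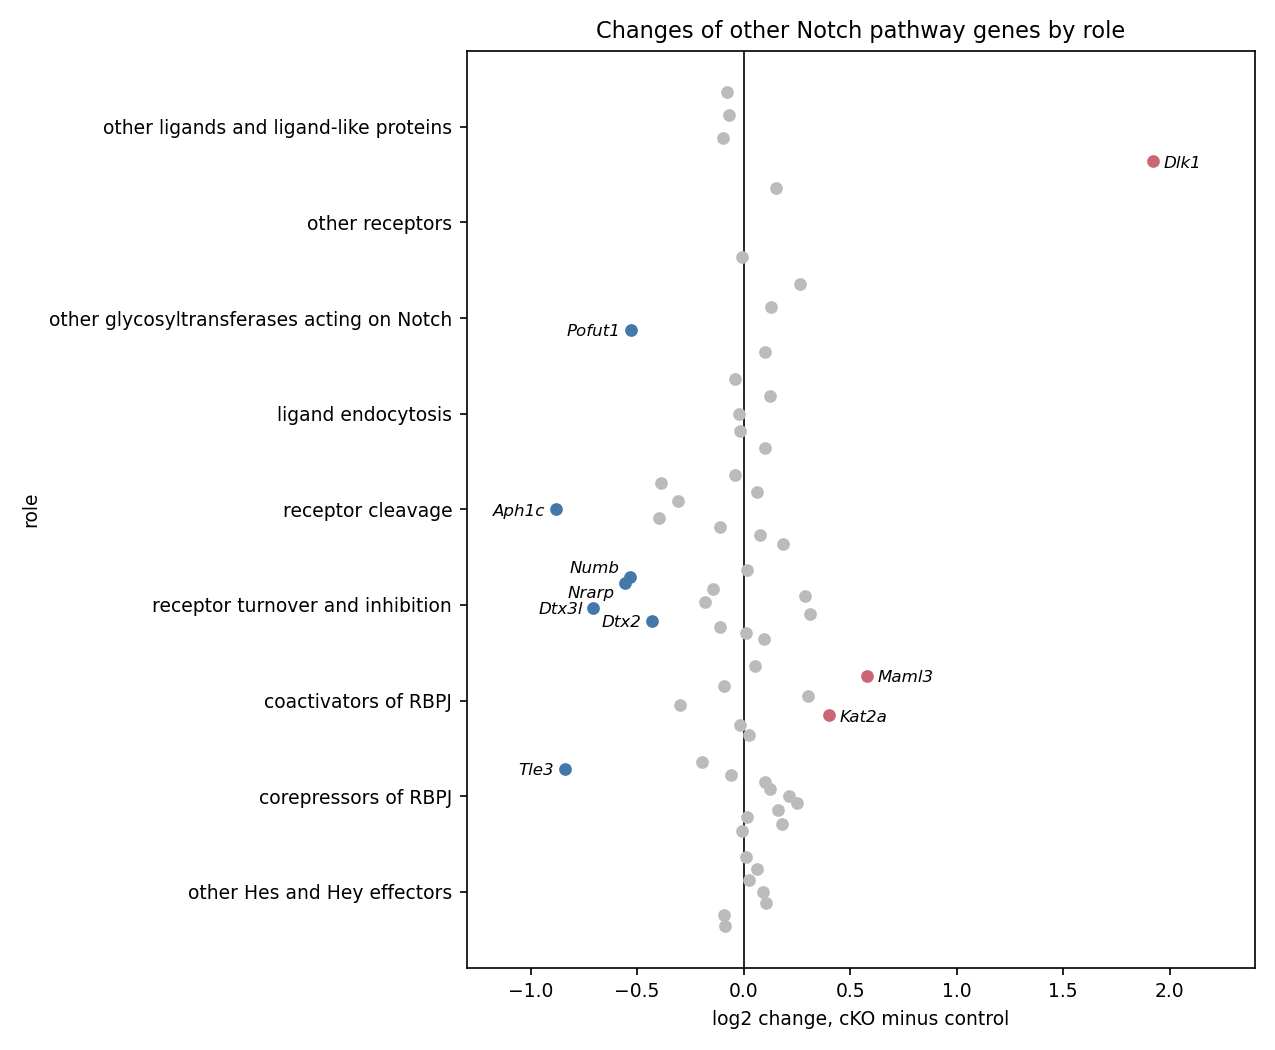
Log2 change (arrays labelled cKO minus controls) of the 62 measured pathway genes outside the 10, in rows by role, with named red points for the 3 that rose, named blue points for the 7 that fell and grey points for the 52 that did not pass. The grey points lie between −0.40 and 0.31, and the row of receptor turnover and inhibition holds 4 of the 7 falls.

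For the 3 members with a change of at least 1 log2 unit, the genes whose levels followed them most closely over the 6 arrays were found by the root mean square difference of mean-centred log2 levels. Nearest to Dll4 were Ffar4, a fatty acid receptor (0.076), Fry (0.077) and Diaph2, a formin (0.080). Nearest to Lfng were Rap1gap (0.078), Muc2, the main gel-forming mucin of goblet cells (0.089), and Zdhhc15, a palmitoyltransferase (0.092). Nearest to Dll1 were Tubal3, an alpha-tubulin-like gene (0.049), Acot1, an acyl-CoA thioesterase (0.066), and Cttnbp2 (0.069). All 9 passed the same test as their member in the same direction, which this choice by likeness makes near certain, so it is a description only.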

How the data were processed

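RNA from isolated epithelial cells of embryonic mouse small intestine was labelled with biotin and measured on Affymetrix Mouse Gene 1.0 arrays, 3 per group. The values are levels that the authors made with dChip, per the labels and the series text, and they were read here as log2. The sources used here do not give its version, background correction or normalization, and the log base was read from the range of the values, 0 to 14.25. Array medians over 35512 probe sets were 7.73 to 7.84, and centring is unknown. No detection calls were used, so no gene could be called absent, and a dim probe set can understate a change.

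Probe sets annotated to exactly 1 gene (21789) were used, the highest mean per gene, giving 19938 genes. Gene IDs were matched to RefSeq symbols. Groups came from the source names. All genes were fitted with limma 3.58.1 in R 4.3.3 (lmFit and eBayes, two-sided, no covariate, no filter), adjusted by Benjamini-Hochberg at 0.05. The members and lists were chosen with earlier results of these data known. Named are the 10 members, every other listed pathway or lineage gene past the threshold, Gata4 and Gata6, and the 3 genes most like each member that changed by at least 1. A few listed genes that did not pass (among them Mib1, Adam10, Olfm4 and Neurog3) were named after their values were seen. No array repeated another. The limma step was tested on simulated data. Alternatives were quantile normalization, median centring, log2(2^value + 32), leaving out dim genes, other eBayes settings, array weights, a replicate block, other uses of probe sets, and arrays left out.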

Additional observations from a re-analysis of the deposited data

How the results depend on the processing

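Across 17 alternatives, Dll1, Dll4, Lfng and Jag2 kept their direction and their call in all of them, with changes of −1.27 to −0.98, 1.18 to 1.38, 1.16 to 1.42 and 0.47 to 0.57. Notch2 kept its direction (0.64 to 0.98) and lost its call in 6. Jag1, Notch1, Hes1, Hes5 and Rbpj did not pass under any alternative, but the sign of 4 of them turned. With 1 array left out, Notch1 ran from −0.02 to 0.115, Hes1 from −0.12 to 0.22, Hes5 from −0.028 to 0.058 and Rbpj from −0.043 to 0.13. Without control 3 and cKO 2, Notch1 was −0.01 and Rbpj −0.075, and Rbpj was −0.0019 with array weights and −0.10 as the mean of its probe sets. With 1 array left out, the shift of Hes1 minus Hes5 ran from −0.09 to 0.16, and the other 3 pairs kept their sign.

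Of the 10 Notch genes, 3 or 4 rose and 1 fell under every alternative. Of the other pathway genes, 5 rose when the dimmer part of all genes was left out and fewer were tested, 1 to 3 rose and 5 to 7 fell with 1 array left out, and 1 rose and 4 fell without control 3 and cKO 2, where fewer arrays were used. With the replicate number as a block, 3 Notch genes rose and 1 fell (limma adjusted p = 0.0532 for Notch2, and 0.0521 for the targeted Gata4), and 0 other pathway genes rose (7 were higher at an unadjusted p under 0.05) and 5 fell. The block also lowered the calls over all genes from 1101 to 622 higher and from 1479 to 827 lower. Same-numbered arrays did not deviate together (correlations of −0.42 to −0.02 across genes). Deviations from a mean of 3 arrays are tied to each other, and control 3 and cKO 2 stood apart. These correlations therefore cannot decide whether the numbers pair the arrays. The cause of these differences was not tested further. With 3 arrays a group, the number of arrays limits the precision, and signal over background could not be judged from the deposited values.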
